A study of Homo sapiens with 6 samples.

Results

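The collagens, laminins and integrins of HepG2, an established line of human liver carcinoma cells, were followed through a comparison of cells carrying a hairpin plasmid against TCTP with cells carrying a control hairpin plasmid. Members were taken by gene type and name, though the families were chosen with earlier results of these data known. They are the protein-coding genes whose symbol reads COL, digits, A and digits, or LAMA, LAMB or LAMC and a digit, or ITGA or ITGB and a digit or 1 of the letters D, E, L, M, V or X. The rule found 67 genes among the 26389 of the count table, made up of 34 collagen, 11 laminin and 22 integrin genes. The shCtrl group held 3 libraries of cells labelled control, and the shTCTP group 3 libraries of cells labelled TCTP knock-down. TCTP, the translationally controlled tumour protein, is encoded by TPT1. Both groups were the same cell line, grown in serum-containing medium and transfected with a plasmid by a lipid reagent, so a transfected plasmid is shared by all 6 libraries. The cells were transfected in bulk, and neither the hairpin sequence nor the share of cells that took up the plasmid is given in the labels. The labels name 48 h as the time of harvest for quantitative PCR.

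Collagens are secreted proteins of 3 chains wound into a triple helix, and each gene of the family encodes 1 kind of chain. Laminins are cross-shaped trimers of 1 alpha, 1 beta and 1 gamma chain, which together with type IV collagen build the sheet-like basement membrane under epithelial cells. Integrins are cell-surface receptors made of 1 alpha and 1 beta chain, which grip these matrix proteins outside the cell and bind the actin cytoskeleton inside it. In liver most fibrillar collagen is made by stellate cells and fibroblasts, while hepatocytes are known as a source of type XVIII collagen and carry few classes of integrin.

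Libraries held between 25427614 and 30486409 reads assigned to genes, and the shallowest was shTCTP library 3. That library also stood apart, with a mean correlation of log2 expression with the others of 0.977 against 0.986 to 0.987. Values of TPT1 ran from 2249 to 2575 CPM (counts scaled to a common library total with the TMM factors) in shCtrl and from 1559 to 2032 CPM in shTCTP libraries. Its log2 fold change was -0.40 (SE 0.17) and did not pass (edgeR adjusted p = 0.396). The labels do not say that replicate libraries came from separate cultures, so the p-values below describe the spread between these libraries only, and part of that spread may be technical. In bulk RNA, fewer cells expressing a gene and less RNA per cell cannot be told apart. Hepatocyte genes were abundant, with 9 of 9 listed markers measured and a summed level of 19199 to 20017 CPM in shCtrl and 14795 to 17811 CPM in shTCTP libraries. None of the 9 passed, the lowest edgeR adjusted p being 0.164 for TTR. ALB, APOA1, AFP, APOB and FGB overlapped between groups, while TF, SERPINA1, TTR and HNF4A were lower in shTCTP without overlap. Of 9 fibroblast or stellate cell markers 6 were in the table and 4 of those stayed under 1 CPM in every library, and the 3 endothelial markers in the table all did so. Summed levels were 58.9 to 63.3 and 64.3 to 70.0 CPM for the fibroblast list and 936 to 1021 and 1020 to 1197 CPM for 5 bile duct markers, shCtrl and shTCTP in turn. These sums were mostly ACTA2 (edgeR adjusted p = 0.674) and mostly KRT19 (edgeR adjusted p = 0.740). The part of these cell type markers in the results was not tested.

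Promoter windows were read for members on which the results turn and for which a window was at hand. They come from RefSeq on GRCh38.p14 and run from 250 bases before a gene's start to 50 after it, written 5′ to 3′ on the strand of the gene. Windows were found for 27 of the 37 members that could be tested, 39 windows in all since some genes have several starts. Capitals mark each match, on either strand, to an AP-1 site (TGANTCA), a GC box (GGGCGG) or a TATA box (TATAAA), and no 2 of these matches overlap in the windows shown. ITGAM is shown as the member that rose, LAMB3 (the window of 1 of its 3 starts) as the laminin with the largest fold change, and COL4A2 because it shares its start region with COL4A1.
ITGAM, chr16:31259725-31260024, plus strand: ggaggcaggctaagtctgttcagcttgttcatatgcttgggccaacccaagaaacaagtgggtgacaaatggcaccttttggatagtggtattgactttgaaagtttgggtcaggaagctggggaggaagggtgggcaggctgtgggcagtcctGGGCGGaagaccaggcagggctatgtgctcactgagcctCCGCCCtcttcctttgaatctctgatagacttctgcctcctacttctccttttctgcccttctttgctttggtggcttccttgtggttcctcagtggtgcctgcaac
LAMB3, chr1:209651325-209651624, minus strand: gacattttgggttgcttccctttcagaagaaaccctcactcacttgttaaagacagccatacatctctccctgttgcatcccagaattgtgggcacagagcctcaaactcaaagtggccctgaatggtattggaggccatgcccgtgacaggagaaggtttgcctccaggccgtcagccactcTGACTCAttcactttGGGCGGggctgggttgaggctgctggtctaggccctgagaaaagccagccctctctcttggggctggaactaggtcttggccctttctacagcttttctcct
COL4A2, chr13:110307034-110307333, plus strand: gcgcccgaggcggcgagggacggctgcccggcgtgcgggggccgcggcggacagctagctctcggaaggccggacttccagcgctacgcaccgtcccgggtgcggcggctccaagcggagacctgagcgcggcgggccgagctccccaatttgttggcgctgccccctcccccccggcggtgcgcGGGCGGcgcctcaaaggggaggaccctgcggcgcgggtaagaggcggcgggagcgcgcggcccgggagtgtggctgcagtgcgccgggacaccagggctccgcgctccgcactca
The ITGAM window holds a pair of GC boxes, and the LAMB3 window an AP-1 site and a GC box. This window was chosen because it holds the AP-1 site; the windows of the other 2 LAMB3 starts hold a GC box and no AP-1 site. The COL4A2 window overlaps the window of COL4A1, on the opposite strand, by 226 bases, since the 2 RefSeq starts lie 127 bp apart. An AP-1 site was found in 3 of the 39 member windows (7.69%), those of LAMB3, ITGA5 and LAMA3, against 7.71% of all 35116 windows. A GC box was found in 28 of 39 (71.8%) against 45.0% of all windows, and a TATA box in 4 of 39 (10.3%) against 11.5%. The median share of G and C letters was 61.7% in member windows and 58.7% in all windows. Member windows were those of tested genes only, so the sets compared may differ in more than the families. The motif hits are matches of letters and say nothing of binding in these cells.

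Few of the 67 genes were expressed at a high level. FPKM (reads scaled by gene length and library total, as the authors deposited it) was given for 64 members, and 18 of these had a mean of at least 1 FPKM in shCtrl libraries. Enough reads for a test were found for 37 members, 16 collagens, 7 laminins and 14 integrins. The other 30 had at most 20 reads in any library, and 17 of them at most 3. All members together took from 0.0661% to 0.106% of the reads of a library, and both ends of this range were shTCTP libraries.

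**Figure D1:**
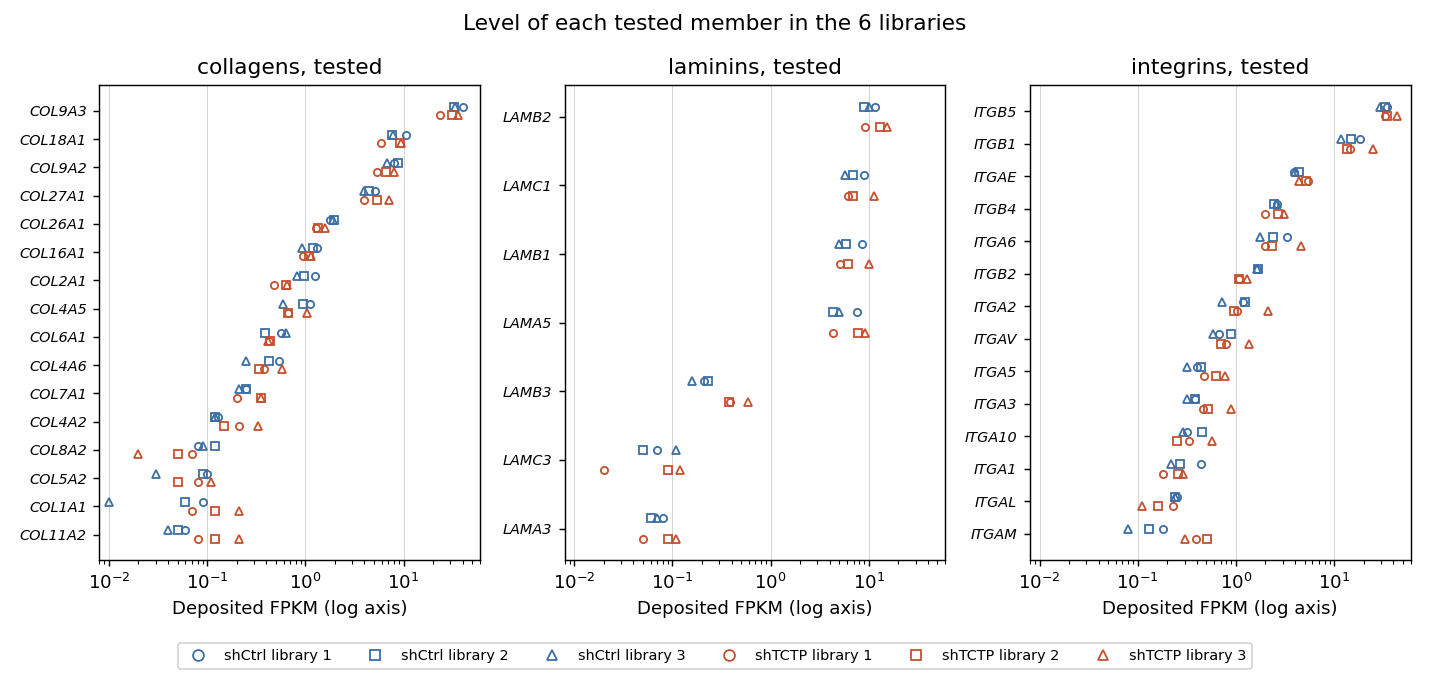
Deposited FPKM on a log axis for each tested collagen, laminin and integrin gene, ordered by the mean of the shCtrl libraries; circles, squares and triangles stand for libraries 1, 2 and 3 of each group. COL9A3 and ITGB5 lie highest, and 4 laminin genes lie between 4.30 and 15.5 FPKM in all 6 libraries while the other 3 stay under 1.

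The level of each family rested on a few genes. Among collagens COL9A3, a chain of the fibril-associated type IX collagen of cartilage, was highest, with 40.0, 32.8 and 33.2 FPKM in shCtrl libraries. It lay far above COL18A1, the type XVIII collagen of basement membranes, at 8.66 ± 1.64 FPKM, and COL9A2, another type IX chain, at 7.91 ± 1.06 FPKM (SD, n = 3 each). The last 2 overlapped over the shCtrl libraries and could not be ordered. COL18A1 also overlaps SLC19A1 on the opposite strand, which had 5581 reads, and reads there cannot be assigned if strand was not used in counting. COL27A1, a fibril-forming collagen, followed with 4.54 ± 0.609 FPKM (SD, n = 3). The remaining type IX chain gene, COL9A1, had 1 read over all 6 libraries. Type I and type III collagen, which stellate cells make in bulk, were near the lower limit, with 3 to 37 reads per library for COL1A1 and 3 to 20 for COL3A1. COL1A2, which encodes the other type I chain, was not among the collagen genes that the rule found.

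Laminin genes fell into an abundant and a scarce group. LAMB2 stood at 10.2 ± 1.31, LAMC1 at 7.22 ± 1.62, LAMB1 at 6.48 ± 1.88 and LAMA5 at 5.62 ± 1.70 FPKM in shCtrl libraries (SD, n = 3 each), and neighbours in this order overlapped. These 4 encode the alpha, beta and gamma chains of the widespread epithelial laminins. LAMB3, LAMC3 and LAMA3 stood at 0.200, 0.0767 and 0.0700 FPKM on average. LAMA3 and LAMB3 encode an alpha and a beta chain of the laminin that anchors epidermis.

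Among integrins the beta chains led. ITGB5 had 34.9, 33.2 and 29.5 FPKM in shCtrl libraries, clear of ITGB1 with 18.4, 14.8 and 11.8 FPKM. ITGAV, the alpha chain that pairs with ITGB5, stood at 0.720 ± 0.154 FPKM (SD, n = 3). Of the alpha chains known to pair with ITGB1, ITGA6 (laminin receptor) was at 2.47 and ITGA2 (collagen receptor) at 1.05 FPKM, while ITGA5 (fibronectin receptor), ITGA3 (laminin receptor), ITGA10 and ITGA1 (collagen receptors) lay between 0.310 and 0.387 FPKM. ITGB4, the other partner of ITGA6, stood at 2.58 ± 0.104 FPKM (SD, n = 3). ITGAE, an alpha chain known from lymphocytes in epithelia, was listed at 4.13 ± 0.253 FPKM (SD, n = 3), while its only partner ITGB7 had 0 to 9 reads per library. The ITGAE span on chromosome 17 contains HASPIN on the opposite strand, with 1222 reads over the libraries, and whether strand was used in counting is not given in the sources used here. ITGA1 likewise contains PELO on its own strand, with 5334 reads, so its value is uncertain. ITGB4 overlaps GALK1 on the opposite strand, which had 14967 reads, so the level of ITGB4 is uncertain too if strand was not used.

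In the comparison of shTCTP with shCtrl cells, 1 member rose and 1 fell. Among all 14197 tested genes 200 passed an edgeR adjusted p under 0.05, a share of 1.41%, and 2 of the 37 tested members did, a share of 5.41%. In the upward direction 1.26% of all genes passed and 1 member, ITGAM. In the downward direction 0.148% of all genes passed and 1 member, COL2A1. The median log2 fold change was 0.07 over the tested members and -0.0023 over all tested genes, with 21 members above 0 and 16 below. By family the median was -0.21 for collagens, 0.12 for integrins and 0.18 for laminins. The sign of the collagen median depended on the filter: over all 34 collagens, with no filter on low counts, it was 0.17, with 20 genes above 0 and 14 below. With COL2A1 and ITGAM included, the 3 shTCTP libraries did not overlap the 3 shCtrl libraries for 12 of 37 members, 6 higher and 6 lower, against a share of 17.1% of all tested genes (9.83% higher and 7.30% lower). An unadjusted edgeR p under 0.05 was found for 12 of 37 members, against 11.1% of all tested genes; of these members 7 were higher and 5 lower, against 6.8% and 4.27% of all genes. Among the 7, COL1A1 and COL11A2 reached the read minimum in 3 shTCTP but only 2 shCtrl libraries, so they entered the test through the group where they were high. No test was made of whether these shares differ from those of all genes.

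**Figure D2:**
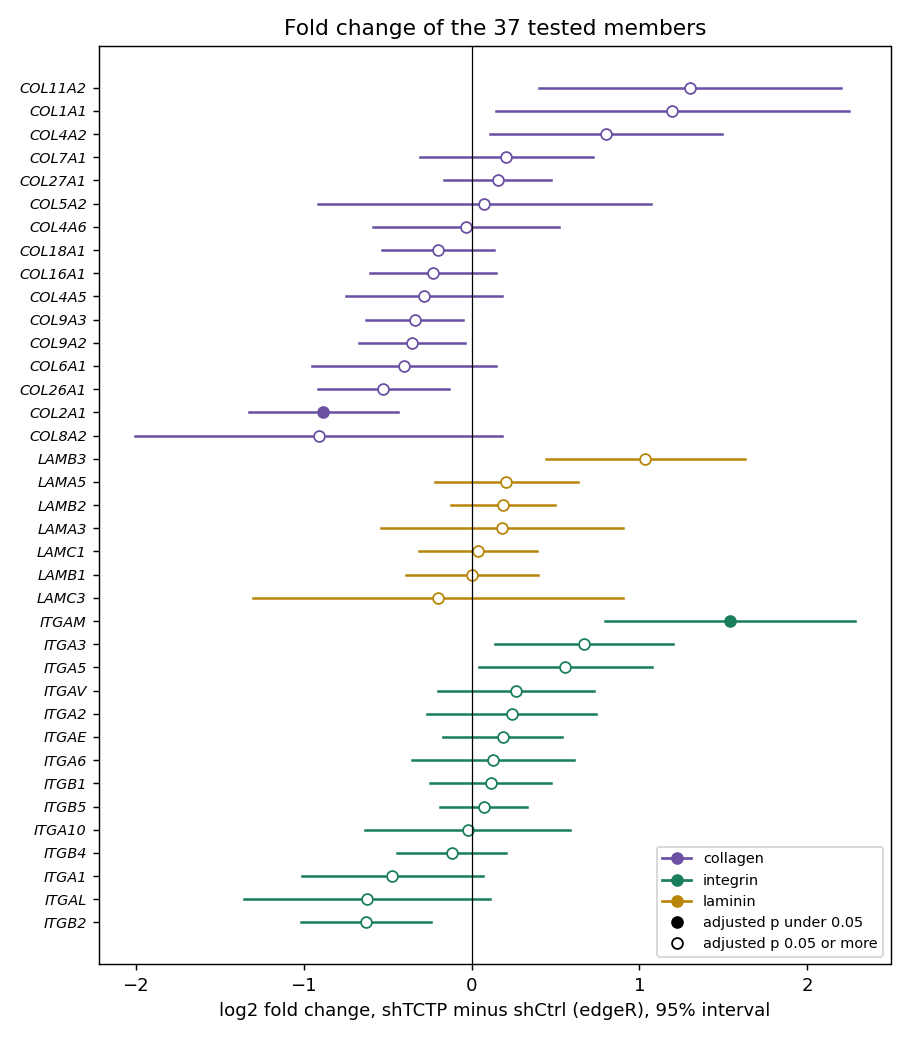
Log2 fold change of shTCTP against shCtrl from edgeR for the 37 tested members, by family, with its 95% interval; filled points passed an adjusted p under 0.05. Only ITGAM, at 1.54, and COL2A1, at -0.88, are filled, and collagens are found at both ends of their panel, from -0.91 for COL8A2 to 1.30 for COL11A2; COL8A2 reached the read minimum in 3 shCtrl and 1 shTCTP libraries and COL11A2 in 2 and 3, so both entered through the group where they were high.

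COL2A1 (ENSG00000139219.17, GRCh38 chromosome 12, 47972965 to 48004554, minus strand), the chain of cartilage's main fibrillar collagen, was the collagen that fell. Its values were 6.56, 5.34 and 4.70 CPM in shCtrl libraries and 2.67, 3.36 and 2.97 CPM in shTCTP libraries. Every shTCTP library lay below every shCtrl library. The log2 fold change was -0.88 (SE 0.21), a level of 54.3% of control, and it passed with an edgeR adjusted p = 0.0466. The deposited FPKM gave the same separation, with 0.820 to 1.26 in shCtrl and 0.480 to 0.650 in shTCTP libraries. The call was lost without any 1 library except shTCTP library 3, with an edgeR adjusted p of 0.0764 to 0.208, where the log2 fold change ran from -0.74 to -0.99. It was also lost with limma voom (adjusted p = 0.0616) and with limma on log2(FPKM + 1) and log2(FPKM + 0.1), which gave -0.34 (adjusted p = 0.302) and -0.69 (adjusted p = 0.286).

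Further collagens that are known from cartilage or linked to its fibrils did not pass. COL9A3 (chromosome 20, 62816244 to 62841159) had 102, 88.9 and 93.7 CPM in shCtrl libraries and 63.0, 81.9 and 79.9 CPM in shTCTP libraries. COL9A2 (chromosome 1, 40300487 to 40317813) had 23.7, 27.7 and 22.0 CPM against 16.9, 19.9 and 20.7 CPM. All shTCTP values of both type IX chains were below all shCtrl values in CPM, with log2 fold changes of -0.34 (SE 0.14) and -0.35 (SE 0.15) and edgeR adjusted p of 0.346 and 0.379. In the deposited FPKM, to which no TMM factors were applied here, the groups of both genes overlapped, with shTCTP library 3 at 35.9 FPKM for COL9A3 and 8.08 for COL9A2. COL11A2 (chromosome 6, 33162681 to 33192499), a chain of type XI collagen that joins COL2A1 in cartilage fibrils, lay on the other side of 0. It had 0.394, 0.382 and 0.287 CPM in shCtrl and 0.548, 0.841 and 1.25 CPM in shTCTP libraries, which gave a log2 fold change of 1.30 with SE 0.42 (edgeR adjusted p = 0.191). These were 8 to 12 reads per library against 16 to 37, and COL11A2 reached the read minimum in only 2 of 3 shCtrl libraries.

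COL26A1 (chromosome 7, 101362820 to 101559024), a small secreted collagen, had 5.51, 6.52 and 6.60 CPM in shCtrl and 4.25, 4.34 and 4.36 CPM in shTCTP libraries. The shTCTP values were close together and below all shCtrl values, giving -0.52 in log2 fold change with SE 0.19 (edgeR adjusted p = 0.248). COL1A1 (chromosome 17, 50183289 to 50201632), a chain of type I collagen, had 0.623, 0.416 and 0.108 CPM against 0.548, 0.874 and 1.25 CPM. Its groups overlapped, and it too reached the read minimum in only 2 shCtrl libraries, so its fold change of 2.29 (SE 0.50 in log2, edgeR adjusted p = 0.370) rests on few reads. COL18A1 stood at 73.9, 57.0 and 60.4 CPM in shCtrl and 43.4, 65.5 and 57.6 CPM in shTCTP libraries, and the groups overlapped with a 95% interval of the log2 fold change from -0.53 to 0.14. For COL27A1 that interval ran from -0.16 to 0.47.

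Type IV collagen chains come from gene pairs that start side by side on opposite strands. COL4A2 (chromosome 13, 110305812 to 110513209) had 0.820, 0.798 and 0.825 CPM in shCtrl and 1.44, 0.975 and 1.86 CPM in shTCTP libraries. The shCtrl values were nearly equal and all shTCTP values lay above them, but the log2 fold change of 0.80 (SE 0.33) did not pass (edgeR adjusted p = 0.357). Its partner COL4A1 had too few reads for a test, 4, 4 and 1 in shCtrl and 3, 0 and 17 in shTCTP libraries, so nearly all of its shTCTP reads came from library 3. The annotated spans of both genes overlap at their starts, and reads there cannot be assigned to either gene if strand was not used. In the X-linked pair COL4A5 and COL4A6, whose annotated starts lie 347 bp apart, the groups overlapped. COL4A5 had 7.38, 6.73 and 4.38 CPM in shCtrl and 4.69, 4.47 and 6.04 CPM in shTCTP libraries, and COL4A6 had 3.84, 3.19 and 1.97 against 2.84, 2.42 and 3.55 CPM. Both genes were highest in shCtrl library 1 and lowest in shCtrl library 3, and among shTCTP libraries both were highest in library 3.

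Laminin chains of the abundant group did not separate the groups. LAMA5 had 88.3, 53.7 and 65.3 CPM in shCtrl and 54.1, 92.3 and 93.1 CPM in shTCTP libraries, a spread of about the same width in both groups. The 95% intervals of the log2 fold change were -0.22 to 0.63 for LAMA5, -0.12 to 0.50 for LAMB2, -0.31 to 0.39 for LAMC1 and -0.39 to 0.40 for LAMB1. The gene end of LAMA5 overlaps ADRM1 on the opposite strand, which had 84450 reads, and LAMB1 overlaps DLD, which had 1989. LAMB3 (chromosome 1, 209614870 to 209652466), the beta chain of the epidermal anchoring laminin, was the tested laminin that separated the groups. It had 0.984, 1.14 and 0.825 CPM in shCtrl and 1.92, 1.78 and 2.36 CPM in shTCTP libraries, from 23 to 33 reads against 53 to 70. The log2 fold change of 1.03 (SE 0.28) missed the threshold with an edgeR adjusted p = 0.0937. LAMA3, its alpha partner, stood at 0.651 to 1.11 CPM in shTCTP and 0.763 to 0.885 CPM in shCtrl libraries, which overlapped. LAMA2, an alpha chain known from muscle, had too few reads for a test, 2, 3 and 4 in shCtrl and 10, 6 and 9 in shTCTP libraries, and these did not overlap. COL28A1, an untested collagen, went the other way without overlap, with 1, 4 and 2 reads in shCtrl and 0 in each shTCTP library. It was singled out after its values were seen, and how often untested genes separate in this way was not counted.

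ITGAM (ENSG00000169896.16, GRCh38 chromosome 16, 31259967 to 31332892, plus strand), the alpha chain of the complement and fibrinogen receptor of myeloid cells, was the integrin that rose. It had 0.885, 0.659 and 0.431 CPM in shCtrl and 1.99, 2.52 and 1.28 CPM in shTCTP libraries. All shTCTP values lay above all shCtrl values, and library 3 was the lowest of the shTCTP group. The counts behind them were 27, 19 and 12 reads against 58, 75 and 38. The log2 fold change was 1.54 (SE 0.35), or 2.91-fold, with an edgeR adjusted p = 0.0375. Without any 1 library except shTCTP library 3 the edgeR adjusted p was 0.0675 to 0.193 and the log2 fold change 1.29 to 1.81; without shTCTP library 3 the adjusted p was 4.3e-05. Limma voom gave an adjusted p of 0.0636, and limma on log2(FPKM + 1) gave 0.31 (adjusted p = 0.0623). Adding 1 to mean levels of 0.13 and 0.400 FPKM shrinks the fold change on that scale. Limma on log2(FPKM + 0.1) gave 1.12 and passed (adjusted p = 0.0431).

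ITGB2, the beta chain that ITGAM pairs with, had a fold change on the other side of 0. ITGB2 (chromosome 21, 44885953 to 44931989) had 5.90, 6.35 and 6.57 CPM in shCtrl and 4.08, 3.97 and 4.12 CPM in shTCTP libraries. The values of each group were close together and did not overlap, with a log2 fold change of -0.63 (SE 0.18) that missed the threshold (edgeR adjusted p = 0.127). ITGAL, the lymphocyte alpha chain that also pairs with ITGB2, had 1.31, 1.39 and 1.44 CPM in shCtrl and 1.30, 0.874 and 0.507 CPM in shTCTP libraries, lower throughout though library 1 was close to the shCtrl values (log2 fold change -0.62, SE 0.34, edgeR adjusted p = 0.534). ITGAX, another partner of ITGB2, had 1 to 5 reads per library. Per length ITGB2 was above ITGAM in both groups, at 1.65 ± 0.0100 against 0.13 ± 0.05 FPKM in shCtrl and 1.15 ± 0.136 against 0.400 ± 0.105 FPKM in shTCTP cells (SD, n = 3 each). Of 7 leukocyte markers 6 were in the table, and their summed level, mostly LYZ, was 1077 to 1190 CPM in shCtrl and 894 to 993 CPM in shTCTP libraries. CD3E, a defining T cell gene, was at 0 in all libraries but shCtrl library 3, and the monocyte gene CD14 stood at 6.03 to 7.32 CPM in shCtrl and 4.29 to 5.79 CPM in shTCTP libraries. CD79A, a B cell gene, stood at 2.03, 2.08 and 1.29 CPM in shCtrl and 3.01, 2.72 and 1.32 CPM in shTCTP libraries, and CD74 and the macrophage gene CD68 overlapped between groups too. The part of leukocyte genes in the ITGAM result was not tested.

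**Figure D3:**
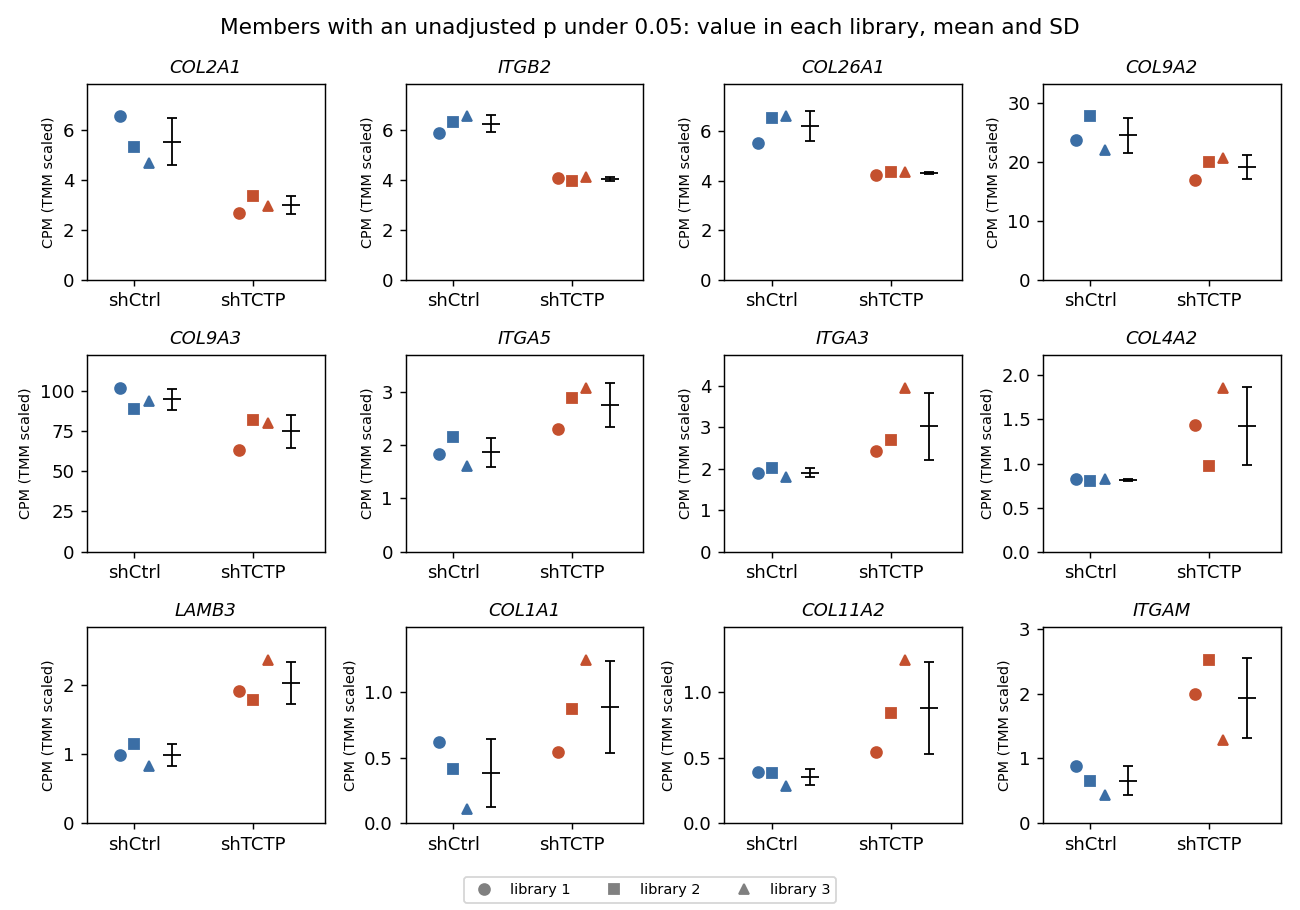
CPM, scaled by the TMM factors, for the 12 members with an unadjusted edgeR p under 0.05, ordered by fold change; points are single libraries, bars the mean and SD of 3, and each axis starts at 0. COL1A1 alone among them overlaps between groups, and in LAMB3, COL4A2, ITGA3, ITGA5, COL1A1 and COL11A2 the highest point is shTCTP library 3.

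Among the alpha chains that pair with ITGB1, ITGA5 and ITGA3 had the positive fold changes with the smallest p. ITGA5 (chromosome 12, 54395261 to 54419460), the fibronectin receptor chain, had 1.84, 2.15 and 1.62 CPM in shCtrl and 2.30, 2.89 and 3.07 CPM in shTCTP libraries. ITGA3 (chromosome 17, 50055968 to 50090481), a laminin receptor chain, had 1.90, 2.01 and 1.80 CPM against 2.43, 2.69 and 3.95 CPM. Neither overlapped between groups, and neither passed, with log2 fold changes of 0.56 (SE 0.24) and 0.67 (SE 0.25) and edgeR adjusted p of 0.398 and 0.290. ITGB1 itself had 74.1, 63.4 and 52.6 CPM in shCtrl and 62.6, 55.7 and 87.6 CPM in shTCTP libraries, and its groups overlapped. ITGA6 and ITGA2 followed the same order within the shTCTP group in that library 3 was highest, with 23.9 and 14.9 CPM against 7.84 to 14.3 CPM in the other 2 libraries. The abundant ITGB5 varied little, from 146 to 159 CPM in shCtrl and from 158 to 169 CPM in shTCTP libraries, with a 95% interval of its log2 fold change of -0.19 to 0.33.

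Single libraries held many of the highest and lowest values. Of the 37 tested members 18 had their highest CPM in shTCTP library 3, and 15 had their lowest in shCtrl library 3. No such count was taken over all genes, so whether this is particular to the members was not tested. Against the mean of the shCtrl libraries, the median member deviated by -0.21, -0.08 and 0.34 on the log2 scale in shTCTP libraries 1, 2 and 3, and by 0.11, 0.05 and -0.14 in the shCtrl libraries. Among the 30 untested members, 11 had their highest count in shTCTP library 3 alone. That library held 20 reads of COL3A1, 16 of COL12A1, a fibril-associated collagen, and 12 of ITGA9, a tenascin receptor chain, where the others held 3 to 8, 1 to 4 and 0 to 2. These 3 were singled out after their values were seen. Without shTCTP library 3 the median of all tested members was -0.13, that of integrins -0.09, that of laminins 0.05 and that of collagens -0.20, while the same 2 members passed.

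Members are long genes, and the median of other long genes was also raised in shTCTP library 3. Their median length, derived from counts and FPKM, was 6.41 kb against 3.34 kb for all tested genes. In shTCTP library 3 the median deviation was 0.24 for all tested genes of 6 to 12 kb, 0.12 for all genes within the members' length range and -0.14 for genes shorter than any member. In shTCTP library 1, where the members' median was -0.21, that of genes of 6 to 12 kb was -0.03, and in shCtrl library 2 the members' 0.05 stood beside -0.02. After a correction for length in each library the members' median log2 fold change was 0.02 and those of the families were -0.26 for collagens, 0.08 for integrins and 0.08 for laminins. ITGAM and COL2A1 both passed after that correction, with log2 fold changes of 1.53 and -0.91 and edgeR adjusted p of 0.0188 and 0.0113.

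**Figure D4:**
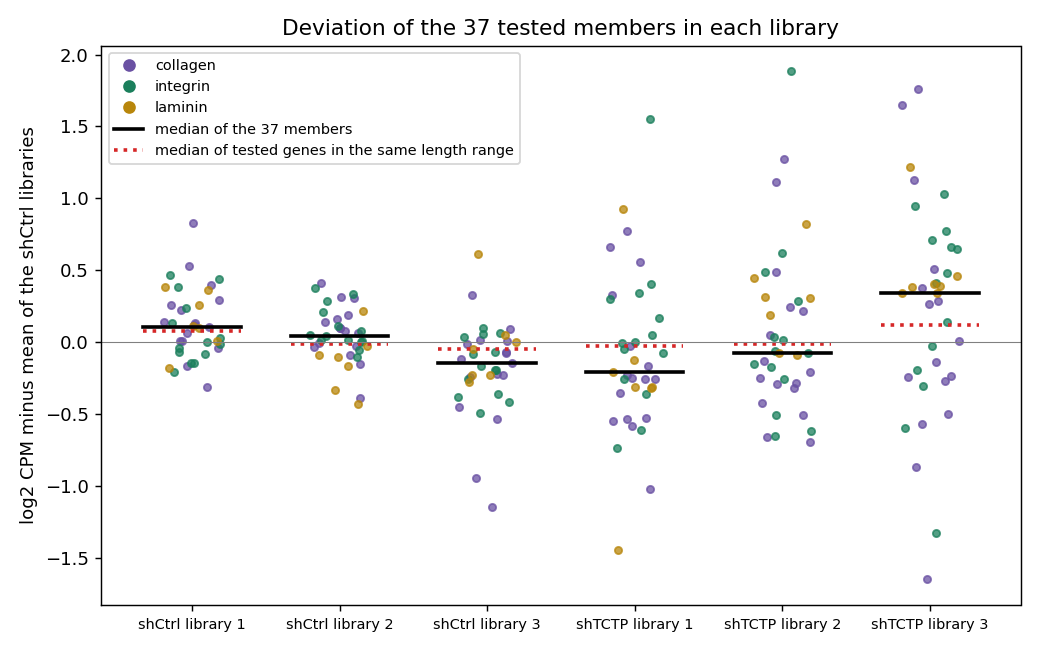
Log2 CPM of each tested member minus its mean over the shCtrl libraries, by library and coloured by family; black lines are medians of the 37 members and dotted lines medians of all tested genes in the same length range. The black line is highest in shTCTP library 3, at 0.34, where the dotted line is at 0.12, and lowest in shTCTP library 1, at -0.21.

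Other genes of matrix assembly and adhesion were read from 5 lists, of which 146 of 149 symbols were in the table and 117 were tested. Of these 117, 1 gene was higher and 1 lower, against 1.26% and 0.148% of all tested genes. Whether these shares differ was not tested. Of 27 tested genes for collagen modification and assembly none rose and 1 fell, LOX, the enzyme that crosslinks collagen, from 6.60 to 11.9 CPM in shCtrl to 2.06 to 4.44 CPM in shTCTP libraries (log2 fold change -1.38, edgeR adjusted p = 0.0145). LOX missed the threshold without shCtrl library 1 or 2 (edgeR adjusted p = 0.132 and 0.114). It also missed it with limma on log2(FPKM + 1) and log2(FPKM + 0.1) (adjusted p = 0.0774 and 0.0550). The list had 23 members below 0 and 4 above, with a median of -0.14. With a library left out the median ran from -0.19 to -0.05, the latter without shCtrl library 2, where 19 genes lay below 0 and 8 above. On the log2(FPKM + 1) and log2(FPKM + 0.1) scales it was -0.02 and -0.03, with 15 below and 12 above. The median over all tested genes was itself 0.06 and 0.09 on those scales, so the list median lay below it on both. Of 20 other basement membrane and matrix ligands 1 rose, CYR61, a secreted integrin ligand, from 21.7 to 25.9 CPM in shCtrl to 50.1 to 54.0 CPM in shTCTP libraries (log2 fold change 1.15, edgeR adjusted p = 0.00011), and none fell. The median of that list was 0.02, and it ran from -0.12 without shTCTP library 3 to 0.17 without shTCTP library 1.

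None of 16 tested further matrix receptors passed. The smallest p were those of GPC3, a heparan sulfate proteoglycan of liver tumours, with a log2 fold change of -0.56 (edgeR adjusted p = 0.0952), SDC4, a syndecan of adhesion sites, with 0.38 (0.273), and SDC2, another syndecan, with -0.31 (0.377). GPC3 passed in 4 of 17 alternative settings. Without shTCTP library 3 it was -0.63 (edgeR adjusted p = 0.0183), with no filter -0.57 (edgeR adjusted p = 0.0188) and with the length correction -0.55 (edgeR adjusted p = 0.0445). With DESeq2 it was -0.57 (adjusted p = 0.0105). None of 34 tested adaptors and kinases of integrin adhesion passed, although 24 lay above 0. Their median was 0.09, and with a library left out it ran from 0.02 without shTCTP library 3 to 0.17 without shTCTP library 1. The smallest p among them belonged to TNS1, which links integrins to actin, at -0.48 (edgeR adjusted p = 0.237), the adaptor CRK at 0.30 (0.466) and LIMS2 at -0.35 (0.470). None of 20 tested matrix proteases and inhibitors passed. PLAU, which activates plasminogen, stood at 0.58 (edgeR adjusted p = 0.289), its receptor PLAUR at 0.47 (0.334) and the protease MMP11 at -0.54 (0.344).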

How the data were processed

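RNA-seq of polyadenylated RNA was available for 6 HepG2 libraries, 3 shCtrl and 3 shTCTP. The submitters' processing notes name bcl2fastq, TopHat2, edgeR and GRCh38. Versions, annotation and read assignment were not given in the sources used here. Whole-number read counts and, in another table, FPKM were deposited by the authors. From the counts, genes were kept by filterByExpr, scaled by TMM and tested in edgeR 4.0.16 (R 4.3.3) by its quasi-likelihood test, robust, with group as the only term and Benjamini-Hochberg adjustment over all 14197 tested genes, at a threshold of 0.05. The procedure was tested on simulated data. Standard errors come from the estimate and the F statistic.

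Members and lists were chosen with earlier results of these data known. Members named with library values are those with an unadjusted p under 0.05, the 4 highest of each family by FPKM and chains that pair with them. COL28A1, COL3A1, COL12A1 and ITGA9 were added after their values were seen. From a list, genes that passed are named, or else those 3 of smallest p. Gene lengths were derived from counts and FPKM in libraries with at least 5 reads and 0.1 FPKM, for 99.1% of tested genes. Coordinates come from GENCODE release 29 (67 of 67 members matched). Within groups, chi-square over degrees of freedom was 13.9 to 85.7 for pairs of libraries, above sampling noise. Alternatives were RLE and upper quartile normalization, other filters, a block for the replicate number, DESeq2 1.42.0, limma 3.58.1 (voom, and log2 of FPKM with pseudocounts of 1 and 0.1), a loess length correction with a span of 0.3, levels as CPM over derived length, and each library left out. 1 result on a member is not reported here.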

Additional observations from a re-analysis of the deposited data

How the results depend on the processing

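Each library was left out in turn and 11 further settings were tried. Genes called higher over the whole table numbered 179 and ran from 76 without shCtrl library 2 to 300 without shTCTP library 3, and were 111 with the replicate block. Genes called lower numbered 21 and ran from 3 to 43 with a library left out. They were 71 with no filter, 47 with the length correction, 40 with that correction and the replicate block, 58 with DESeq2, 6 with log2(FPKM + 1) and 11 with log2(FPKM + 0.1). The members called, 1 higher and 1 lower, each ran from 0 to 1 with a library left out. Members called higher were 0 with limma voom and with log2(FPKM + 1), and members called lower were 0 with those settings, with log2(FPKM + 0.1) and with the replicate block, where COL2A1 had an edgeR adjusted p of 0.124. Of the 5 lists, 1 gene was higher and 1 lower, running from 1 to 2 and from 0 to 4 with a library left out. The higher count was 2 with no filter. The lower count was 2 with no filter and with DESeq2, 3 with the length correction, and 0 with either FPKM scale. The members' median log2 fold change of 0.07 ran from -0.13 to 0.19 over all settings. Mean FPKM of the members named with levels moved by less than 1 SD when taken as CPM over derived length. That length was itself derived from the same counts and FPKM, so the closeness was built in and does not check the levels.

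All 12 members with an unadjusted p under 0.05 kept their sign in every setting that tested them, and 28 of the 37 tested members did. COL1A1, COL4A2 and COL11A2 were tested in 16 of 17 settings. The 12 were picked by p in these same libraries, and all but COL1A1 did not overlap between groups. Their signs could therefore hardly turn with a library left out, and keeping them is no separate support. The sign turned for 9 members, none of which had passed. LAMB1 (0.0045) was -0.0072 with RLE, -0.0046 with upper quartile scaling, -0.0089 with no filter, -0.0076 at 1 CPM or more, -0.0522 and -0.0541 with the length correction alone and with the block, -0.0097 with DESeq2, -0.000498 with voom, and -0.0519, -0.13 and -0.20 without shCtrl library 2, shCtrl library 3 or shTCTP library 3. LAMC1 was -0.0366 and -0.0406 with the length correction alone and with the block, and -0.07 and -0.15 without shCtrl library 3 or shTCTP library 3. Without those same 2 libraries COL5A2 was -0.29 and -0.11, ITGB1 -0.0056 and -0.089, and ITGA6 -0.043 and -0.19. COL4A6 was 0.029 and 0.092 on the FPKM scales with 1 and 0.1 added, and 0.18, 0.0087 and 0.075 without shCtrl library 1, shCtrl library 2 or shTCTP library 2. ITGA10 was 0.027 and 0.054 on those scales, and 0.20, 0.00013 and 0.17 without shCtrl library 2, shTCTP library 1 or shTCTP library 2. LAMC3 was 0.21 and 0.22 without shCtrl library 3 or shTCTP library 1, and ITGA2 was -0.093 without shTCTP library 3. At the other end of their values with a library left out, COL4A6 was at -0.26, COL5A2 at 0.36, ITGB1 at 0.24, ITGA6 at 0.34, ITGA2 at 0.39, ITGA10 at -0.28 and LAMC3 at -0.53. The cause of these changes was not tested. Same-numbered libraries did not deviate together (Pearson r of -0.23, 0.0015 and -0.20 across genes), so the numbers were not taken to pair the samples. No library correlated best with its own number. The replicate block called 130 genes in all, 122 of them among the 200. Low counts limit members such as COL4A2, LAMB3 and COL11A2.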
